A study of Mus musculus with 12 samples.

Results

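Loss of Adcy10, the gene for soluble adenylyl cyclase, was compared with wild type (WT) in mouse CD4+ T cells cultured in baseline medium plus polarizing cytokines. The comparison holds 6 of the 12 libraries of the series, 3 from Adcy10-/- and 3 from WT cells, and they were taken by their titles, not by any measured value. In both genotypes the cells were CD4+ T cells of male C57BL/6 mice aged 8 to 10 weeks, isolated from spleen or lymph node by magnetic negative selection. Culture lasted 18 hours. The T cell receptor was engaged by anti-CD3 coated on the plate at 10 µg/mL, and anti-CD28 was added at 2 µg/mL. The cytokines were IL-6 at 25 ng/mL, and IL-23 and IL-1β at 20 ng/mL each. IL-4 and IFNγ were blocked by antibodies, each at 1 µg/mL. The labels list these additions together and do not say which of them the other 6 libraries, 3 WT and 3 Adcy10-/- in baseline medium, went without. The design of the Adcy10 allele and the breeding of the WT animals are not given in the sources used here. Whether each replicate is its own animal is not stated either, and the p-values then measure the spread between these libraries, which may be technical. Polyadenylated RNA was sequenced, and the deposited values are FPKM, fragment counts scaled by transcript length and by the library's total.

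Soluble adenylyl cyclase makes cyclic AMP inside the cell and is stimulated by bicarbonate and calcium, whereas the other adenylyl cyclases sit in membranes and answer to G proteins. Cyclic AMP activates protein kinase A, which phosphorylates CREB family factors at cyclic AMP response elements in promoters, and phosphodiesterases break it down. Th17 cells are CD4+ T cells that make IL-17A, IL-17F, IL-21 and IL-22. IL-6 acts through STAT3, and IL-1β and IL-23 sustain the program. The comparison asks how far the RNA of these cells differs when the soluble cyclase is missing.

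Of 23991 gene names, 9912 had at least 1 FPKM in at least 3 of the 6 libraries and were tested. Between 9778 and 9925 genes reached 1 FPKM in a library. The step that 1 read makes in the low values put the relative depth of the 6 libraries between 1 and 1.40 times that of WT replicate 1, and the absolute depth was not derived. The libraries were alike, with correlations over tested genes of at least 0.99 within a genotype and of 0.9894 to 0.9954 between genotypes. The replicates numbered 1 of both genotypes stood apart from the other 4 on the first principal component, which held 41.6% of the variance. Their B cell markers were lower than in the others (summed level 68.1 and 53.9 FPKM, against 159.6 to 273). For this reason results are also given below without both of them, an alternative chosen after seeing the data. Same-numbered libraries deviated together, so fits with the replicate number as a block are given where they bear on a result. CD4 T cell identity genes (Cd4, Cd3e, Lck and others, 16 genes) summed to between 3315 and 3788 FPKM in every library, and 0 of the 16 were under 1 FPKM throughout.

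Adcy10 itself was listed at 0 FPKM in all 6 libraries, so its level does not check the genotype labels. The Y-linked Eif2s3y was present in all 6 (31.7 to 34.5 FPKM), as the label male has it.

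No gene passed the test between Adcy10-/- and WT cells with cytokines. Of 9912 genes, 0 (0%) had an adjusted p under 0.05 (limma on log2(FPKM + 1), Benjamini-Hochberg), and the smallest adjusted p was 0.7813. An unadjusted p under 0.05 was reached by 137 genes (1.38%), 100 of them lower (1.01%) and 37 higher (0.373%) in Adcy10-/- cells. The 3 Adcy10-/- values lay wholly below the 3 WT values for 336 genes (3.39%) and wholly above them for 160 (1.61%), which makes 496 genes (5%) whose groups did not overlap. The excess of lower over higher genes depended on scaling: 73.0% of genes with an unadjusted p under 0.05 were lower as deposited, 58.1% after median-ratio scaling and 62.1% after quantile normalization. The median log2 difference (Adcy10-/- minus WT) over all tested genes was -0.01, and 57.1% of estimates were below 0.

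On the log2(FPKM + 1) scale of the test, the error of the comparison was small for most genes. The 95% interval reached 0.20 to either side of the estimate in the median gene, or 1.15-fold on that scale. For 9526 genes (96.1%) the whole interval lay within 1.5-fold of equality on that scale, and for 9804 (98.9%) within 2-fold. An estimate of 1.5-fold or more on that scale was reached by 51 genes (0.5145%), 40 lower and 11 higher, none of which passed. The 1 added to each FPKM shrinks the folds of low genes, so these figures do not bound their folds in FPKM. With the replicate number as a block 0 genes passed, at a smallest adjusted p of 0.1103, and 406 (4.1%) had an unadjusted p under 0.05, 293 lower (2.96%) and 113 higher (1.14%). Without the libraries numbered 1, 0 of 9777 genes passed and 223 had an unadjusted p under 0.05.

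The signature cytokines of Th17 cells were expressed in both genotypes at overlapping levels. Il17a stood at 56.4, 21.4 and 52.8 FPKM in WT replicates 1, 2 and 3 and at 30.5, 34.9 and 63.2 FPKM in Adcy10-/- replicates 1, 2 and 3. The lowest library was WT and the highest Adcy10-/-, with the others interleaved, and the means were 43.5 ± 19.3 (SD, n = 3) and 42.9 ± 17.8 FPKM (SD, n = 3). The log2 difference was 0.02 (95% interval -0.83 to 0.88; limma adjusted p = 0.9998; exact two-sided permutation p = 1, where 0.1 is the smallest that 3 against 3 allows). A difference in Il17a inside that interval was not detectable in these 6 libraries.

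Il17f, which encodes the partner of IL-17A in the mixed dimer, was at 89.97, 33.5 and 78.7 FPKM in WT and at 55.7, 55.5 and 73.8 FPKM in Adcy10-/- cells. WT replicate 2 was the lowest library for both Il17a and Il17f, and the 3 Adcy10-/- values of Il17f lay inside the WT range. The log2 difference of Il17f was -0.02 (95% interval -0.75 to 0.71; limma adjusted p = 0.9998; exact permutation p = 1). Without the libraries numbered 1, which leaves 2 against 2, the estimate was 0.31 for Il17f and 0.47 for Il17a, both at a limma adjusted p of 0.9998.

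Il21, the autocrine cytokine that IL-6 induces early, varied least of the 4 signature cytokines. It was at 70.3, 64.3 and 73.8 FPKM in WT and at 62.5, 73.7 and 70.8 FPKM in Adcy10-/- cells. The log2 difference was -0.01 with a 95% interval of -0.20 to 0.17 (limma adjusted p = 0.9998; exact permutation p = 0.9). This interval holds no difference as large as 1.5-fold on that scale.

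Il22, the cytokine that acts on epithelia, was at 116.2, 58.6 and 98.5 FPKM in WT and at 103.2, 81.7 and 125.1 FPKM in Adcy10-/- cells. Its groups overlapped, with a log2 difference of 0.21 (95% interval -0.33 to 0.76; limma adjusted p = 0.9998; exact permutation p = 0.6). Among the other effector cytokines, Il10 was at 5.49, 5.08 and 6.23 FPKM in WT and 4.94, 7.65 and 6.97 FPKM in Adcy10-/- cells. Ifng, the Th1 cytokine, ran from 23.3 to 49.5 FPKM in WT and from 21.8 to 61.9 FPKM in Adcy10-/- cells, and in both genotypes replicate 2 was the highest. Of 14 tested genes on the Th17 cytokine list, 0 passed, 0 had groups that did not overlap, and 8 estimates were above 0 and 6 below. The list's median log2 difference was 0.04, beside -0.01 over all tested genes, and 0.20 without the libraries numbered 1.

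**Figure D1:**
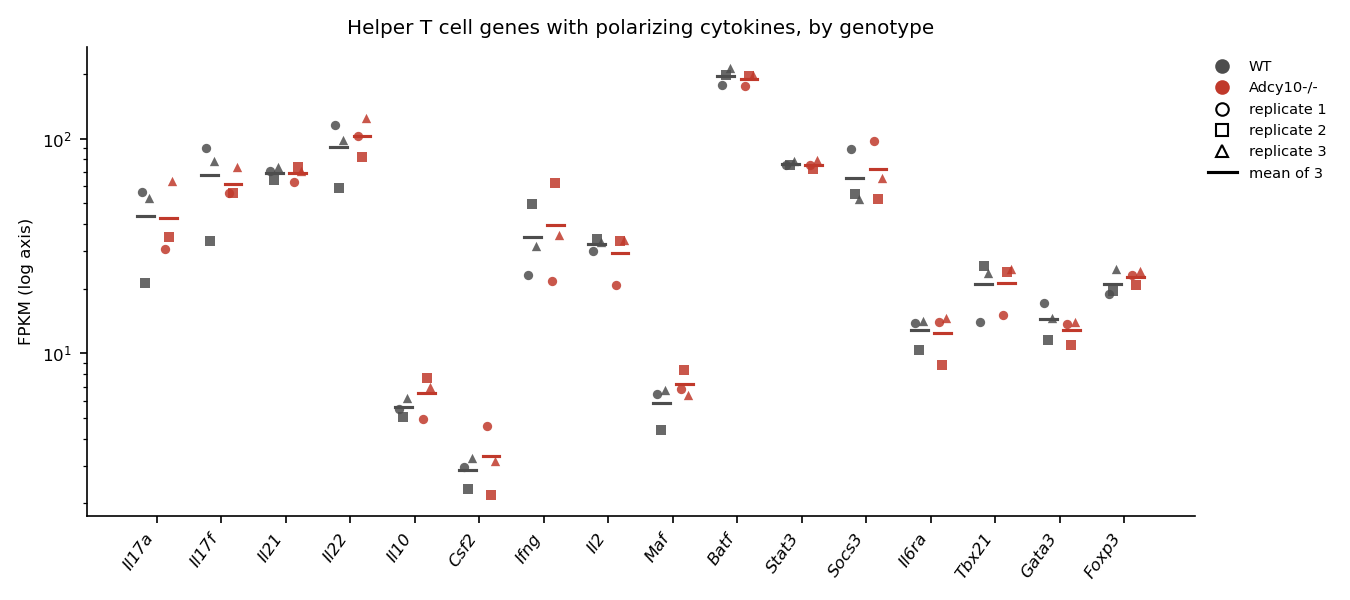
FPKM (log axis) of Th17 cytokine, receptor and lineage genes in each of the 6 libraries with cytokines; gray marks WT, red Adcy10-/-, circle, square and triangle replicates 1, 2 and 3, and the bar is the mean of 3. The genotypes overlap for every gene drawn, and Il17a and Il17f are lowest in WT replicate 2.

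The factors that set the Th17 program also overlapped between genotypes. Maf, a factor that binds many Th17 genes, gave the smallest unadjusted p of this list (0.109), with 6.46, 4.39 and 6.72 FPKM in WT and 6.83, 8.40 and 6.41 FPKM in Adcy10-/- cells. Only 2 of the 3 Adcy10-/- values of Maf were above the highest WT value, so its groups overlapped too. Batf, the AP-1 partner that opens these loci, was at 177.5 to 212.4 FPKM in WT and 176.4 to 198.2 FPKM in Adcy10-/- cells. Stat3 was at 75.1 to 78.2 FPKM in WT and 72.4 to 79.5 FPKM in Adcy10-/- cells. Of the 21 Th17 factors and receptors tested, 0 had groups that did not overlap, and the median log2 difference was -0.01, as over all tested genes.

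Of 21 tested genes of the STAT3 pathway, 13 estimates were below 0 and 0 passed. Groups were apart for 1 of the 21, near the 5% over all tested genes. Pim2, a survival kinase induced by cytokines, was at 108.9, 117.6 and 115.4 FPKM in WT and at 100.6, 99.0 and 104.4 FPKM in Adcy10-/- cells. All 3 Adcy10-/- values were below all 3 WT values, by a log2 difference of -0.17 (SE 0.06; limma adjusted p = 0.9998), and in baseline medium the difference was -0.03. Socs3, the feedback inhibitor of IL-6 signaling, followed the replicate number instead: replicate 1 was the highest in WT (89.5 FPKM) and in Adcy10-/- cells (97.6 FPKM), and the other 4 libraries ran from 52.2 to 65.5 FPKM.

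Genes of NF-kB and IL-1 signaling, the path that IL-1β uses, had 19 of 25 estimates below 0, with a median of -0.04. Over all tested genes 57.1% of estimates were below 0. Nfkbia, the inhibitor that NF-kB induces, was at 257, 258.2 and 257.4 FPKM in WT and at 237.4, 235.1 and 241 FPKM in Adcy10-/- cells. It was the 1 of the 25 whose groups did not overlap, where 5% of all tested genes had groups apart. The log2 difference of Nfkbia was -0.11 (SE 0.05; limma adjusted p = 0.9998). In baseline medium the list had 12 estimates below 0 and 12 above. Of genes of other lineages, the Th1 list with cytokines had 10 of 14 estimates below 0. Its median was -0.10, and -0.02 without the libraries numbered 1. In baseline medium 6 of the 14 were below 0, with a median of 0.06. With cytokines the 15 tested regulatory T cell genes had 12 estimates above 0 and a median of 0.06, with 0 groups apart. Of all tested genes 42.9% had estimates above 0. Foxp3, their lineage factor, was at 18.9, 19.5 and 24.7 FPKM in WT and at 23.1, 20.8 and 24.1 FPKM in Adcy10-/- cells. Tbx21 and Gata3, the Th1 and Th2 factors, had log2 differences of 0.02 and -0.15, with overlapping groups.

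The other parts of the cyclic AMP system differed little. Of the 10 adenylyl cyclase genes listed, 3 were high enough to test: Adcy7, Adcy6 and Adcy3, all membrane enzymes. Adcy7 was at 8.11, 6.69 and 8.09 FPKM in WT and at 7.90, 7.74 and 9.05 FPKM in Adcy10-/- cells, a log2 difference of 0.10 (95% interval -0.12 to 0.32). For Adcy6 the difference was 0.10 and for Adcy3 -0.07, again with overlapping groups. Adcy9 was under 0.3 FPKM in all 6 libraries, and Adcy2 was listed at 0 in all 6.

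Phosphodiesterase genes had 8 of 16 tested, with 4 estimates on each side of 0. Pde4b, a main cyclic AMP phosphodiesterase of T cells, was at 11.7, 9.08 and 10.8 FPKM in WT and at 10.5, 10.1 and 9.26 FPKM in Adcy10-/- cells. Protein kinase A, EPAC and CREB genes had 20 tested, with 7 estimates below 0, a median of 0.02 and 0 groups apart. Prkar1a, the main regulatory subunit, had a log2 difference of -0.04 with a 95% interval of -0.17 to 0.10, and Creb1 a difference of 0.09 (-0.10 to 0.28). Of 10 tested receptors and G proteins that raise cyclic AMP, Ptgir, the prostacyclin receptor, was the one with separate groups, where 5% of all tested genes had them (1.84 to 2.14 FPKM in WT, 1.63 to 1.69 FPKM in Adcy10-/- cells; log2 difference -0.17).

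Genes that cyclic AMP and CREB induce in many cell types are a readout that the selection of libraries did not use. Of 25 tested members, 13 estimates were below 0 and 12 above, 0 had groups apart, and the median was -0.02. Without the libraries numbered 1 the median was 0.08, with 7 below 0. Crem, whose inducible form is a standard CREB target, was at 21.1, 17.7 and 21.6 FPKM in WT and at 17.0, 25.0 and 19.4 FPKM in Adcy10-/- cells. Nr4a1, an immediate early nuclear receptor, was at 106.3, 112.8 and 89.9 FPKM in WT and at 75.5, 105.8 and 119.2 FPKM in Adcy10-/- cells. For both genes the highest and the lowest libraries were Adcy10-/-, so the spread within that genotype covered WT; the log2 differences were 0.01 and -0.06.

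The cyclic AMP response element itself was looked for in the promoters, since it is the sequence through which CREB factors act. The full palindrome TGACGTCA, the same on both strands, was searched in the 250 bases before each start in RefSeq promoters (build GRCm38.p6). It was found in 508 of 32851 promoters (1.546%), and the shorter site TGACG or its complement CGTCA, which the palindrome also holds, in 17.8%. Of the 27 listed response genes 20 had a promoter entry, and 2 held the full element: Dusp1, a MAP kinase phosphatase, and Areg, an EGF family growth factor. Fos and Nr4a1 are shown beside them as classic immediate early targets with the shorter site. The 250 bases held 2 such sites in Fos and 4 in Nr4a1, and only the site nearest the start is shown. Capitals mark the element, and each sequence is written 5′ to 3′ on the gene's strand:
Dusp1, chr17:26508582-26508641, minus strand: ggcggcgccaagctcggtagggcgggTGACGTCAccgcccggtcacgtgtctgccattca
Areg, chr5:91139512-91139571, plus strand: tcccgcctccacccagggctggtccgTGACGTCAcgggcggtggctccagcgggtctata
Fos, chr12:85473798-85473854, plus strand: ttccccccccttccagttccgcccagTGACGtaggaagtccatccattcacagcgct
Nr4a1, chr15:101266780-101266836, plus strand: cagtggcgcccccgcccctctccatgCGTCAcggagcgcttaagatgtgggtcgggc

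The marked bases begin 143 bases before the start in Dusp1, 61 in Areg, 66 in Fos and 40 in Nr4a1. Dusp1, with the full element, was at 15.4, 11.9 and 11.1 FPKM in WT and at 13.5, 11.1 and 11.6 FPKM in Adcy10-/- cells, a log2 difference of -0.07 (SE 0.12). Fos, with the shorter site, had a difference of 0.07 (SE 0.20), and Areg was under the filter in both genotypes (0.261 to 0.441 FPKM in WT). Across the genome, 7546 of the 9912 tested genes had a promoter entry and 256 of these held the full element. Their median log2 difference was -0.01, the same to 2 decimals as that of the 7290 genes without it, and 57.4% against 56.9% of estimates were below 0. Groups were apart and lower for 12 of the 256 (4.688%) and for 3.278% of the rest. A match of letters does not show that a factor binds there.

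Ehd3 had the smallest unadjusted p of all genes. It encodes an EH domain protein of endosomal recycling, and was at 11.03, 9.91 and 9.74 FPKM in WT and at 7.10, 5.84 and 6.36 FPKM in Adcy10-/- cells. The lowest WT library was above the highest Adcy10-/- library, and the means were 10.2 ± 0.70 (SD, n = 3) and 6.43 ± 0.63 FPKM (SD, n = 3). The log2 difference was -0.60 (SE 0.09; 95% interval -0.80 to -0.39; limma adjusted p = 0.7813, and 0.1103 with the replicate block; exact permutation p = 0.1). In baseline medium, in libraries that this comparison did not use, the difference was -0.50.

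Mid1, named outside the rule after its values were seen, encodes a microtubule-bound ubiquitin ligase. It was at 4.13, 2.97 and 3.00 FPKM in WT and at 1.66, 0.80 and 1.31 FPKM in Adcy10-/- cells. The groups stood clear of each other, with a log2 difference of -0.96 (SE 0.16; limma adjusted p = 0.9998, and 0.1103 with the block). In baseline medium the difference was -0.996, and the interaction of genotype and medium was 0.03 (SE 0.29). Without the libraries numbered 1 it was -0.97 for Mid1 and -0.61 for Ehd3.

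Plaur, the receptor of the urokinase plasminogen activator, was likewise named after its values were seen. It was at 5.77, 5.14 and 6.07 FPKM in WT and at 3.15, 3.41 and 3.68 FPKM in Adcy10-/- cells, a log2 difference of -0.59 (SE 0.09; limma adjusted p = 0.7813). In baseline medium its groups differed by -0.15 (SE 0.13). The interaction of -0.45 had an unadjusted limma p of 0.021 and did not pass, as 0 of 10126 genes did. Since Plaur was named on values that also enter the interaction, that p says nothing about the media. With all 12 libraries and the replicate block, the smallest limma adjusted p over all genes was 0.0874, shared by Ehd3, Mid1, Plaur and Mrps14.

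Further genes were ranked by p among those with a mean of at least 5 FPKM. The 15 lower ones were Ehd3, Mrps14, Lad1, Ccl5, Il4i1, Fcer1g, Gadd45b, Bad, Il1b, Nt5dc2, Anapc13, Mpc2, Spast, Cd63 and Pla2g12a. Lad1, which encodes the filament protein ladinin, was at 17.6, 16.6 and 18.6 FPKM in WT and at 12.3, 12.3 and 14.5 FPKM in Adcy10-/- cells (log2 difference -0.41, SE 0.08). Ccl5, a chemokine of activated and memory T cells, was at 7.91, 10.6 and 8.74 FPKM in WT and at 6.46, 6.79 and 6.48 FPKM in Adcy10-/- cells (log2 difference -0.41, SE 0.10). Bad, a BH3-only promoter of cell death, was at 15.98, 17.1 and 15.4 FPKM in WT and at 14.3, 12.6 and 11.6 FPKM in Adcy10-/- cells (log2 difference -0.31, SE 0.09). In each of these 3 the genotypes were fully apart, and none passed (limma adjusted p = 0.9998). In baseline medium Ccl5 and Bad had estimates of 0.13 and 0.04, on the other side of 0, and Lad1 was at -0.09.

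Among the 15 higher ones were Ass1, Ddit3, Fam45a, Gbp4, Ccnt2, Rad52, Fbxw4, Ogt, Prpf39, Rbm4b, Angptl2, Tmem55a, Gt(ROSA)26Sor and Caml. Ddit3, which encodes the stress factor CHOP, was at 10.4, 9.23 and 9.71 FPKM in WT and at 13.8, 11.2 and 12.2 FPKM in Adcy10-/- cells, with log2 differences of 0.31 with cytokines and 0.48 in baseline medium. The groups of Ddit3 were apart in both media. Ass1, an enzyme of arginine synthesis, was at 16.9, 14.8 and 20.6 FPKM in WT and at 21.9, 25.7 and 23.1 FPKM in Adcy10-/- cells, and its estimate in baseline medium was on the other side of 0 (-0.23).

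**Figure D2:**
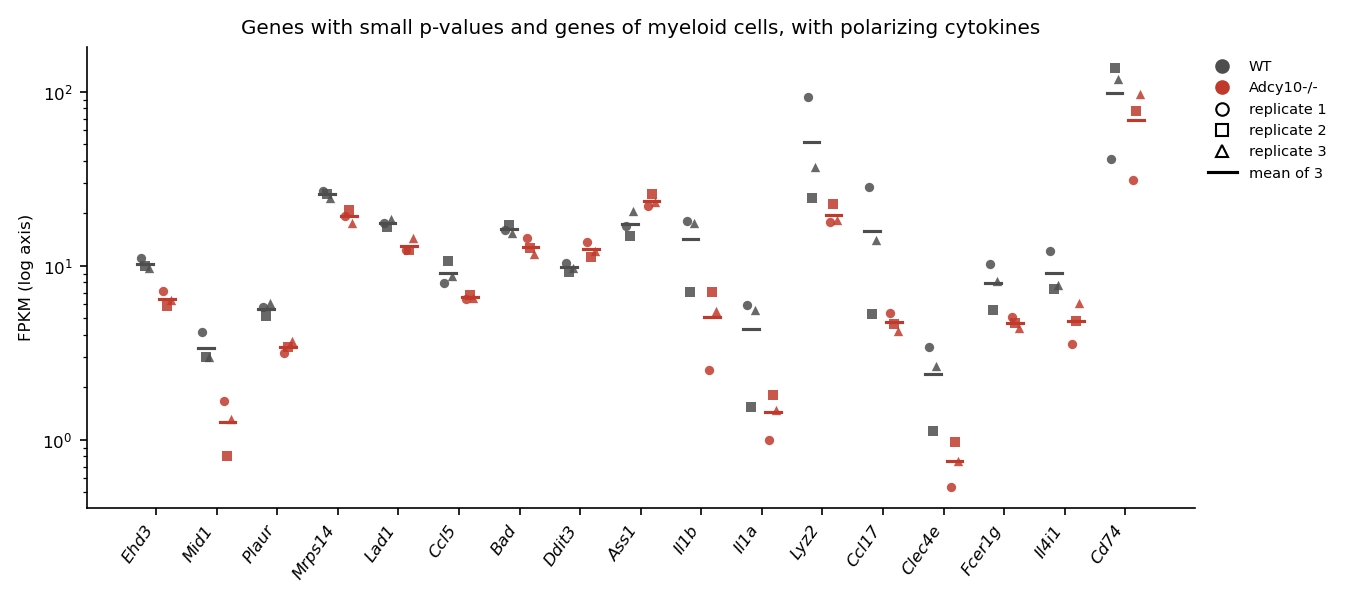
FPKM (log axis) in each of the 6 libraries with cytokines for genes of small p and for genes of myeloid cells; gray marks WT, red Adcy10-/-, circle, square and triangle replicates 1, 2 and 3, and the bar is the mean of 3. Ehd3, Mid1 and Plaur lie wholly lower and Ddit3 wholly higher in Adcy10-/- cells, while Il1b, Il1a and Ccl17 are as low in WT replicate 2 as in an Adcy10-/- library.

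The 6 baseline libraries share no library with the 6 analysed here, so they give a separate measure of genotype, although same-numbered libraries may share a source. In that medium too 0 of 9892 genes passed (0%), 118 (1.19%) had an unadjusted p under 0.05, and 52.4% of estimates were below 0 and 47.6% above. Of the 15 lower genes 11 were also lower in baseline medium, 6 of them with groups apart, where 2.3% of 9892 genes were lower with groups apart. Their median log2 difference was -0.41 with cytokines, the values that chose them, and -0.18 in baseline medium. Of the 15 higher genes 11 were also higher in baseline medium, 2 with groups apart, where 2.57% of genes were, and the medians were 0.24 and 0.04. Over the 9759 genes tested in both media, 52.1% of estimates had the same sign, and the correlation across genes was 0.36 (Pearson) and 0.09 (Spearman), where genes are not independent replicates. Of these 9759 genes, groups were apart in the same direction in both media for 18 lower and 9 higher. In single media, 3.39% of tested genes were lower and 1.61% higher with groups apart with cytokines. The shares in baseline medium were 2.3% and 2.57%. These are shares of 1 medium at a time, and a share to set beside the counts for both media was not derived. Among the genes apart in both media were Mid1, Ehd3, Mrps14, Mpc2, Spast and Ddit3. Il4i1, Fcer1g, Cfb, Csf2rb and Irg1, which myeloid cells express, were also among the lower ones.

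**Figure D3:**
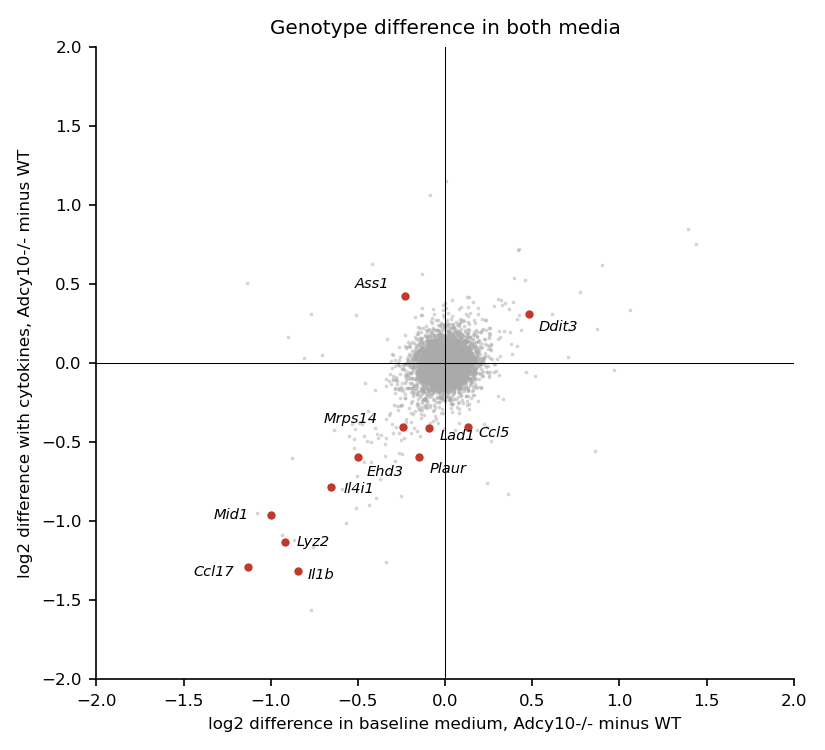
Log2 difference, Adcy10-/- minus WT, in baseline medium (x axis) and with cytokines (y axis) for 9756 genes tested in both, with 3 genes beyond the axes not drawn. Most genes lie near 0 on both axes; Mid1, Ehd3, Il4i1 and Lyz2 lie at the lower left and Ddit3 at the upper right.

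Several of the lowest genes are expressed by myeloid cells rather than T cells. Il1b, which encodes IL-1β, was at 18.2, 7.07 and 17.5 FPKM in WT and at 2.52, 7.09 and 5.49 FPKM in Adcy10-/- cells. Lyz2, the lysozyme of macrophages and granulocytes, was at 93.5, 24.5 and 36.8 FPKM in WT and at 17.8, 22.7 and 18.3 FPKM in Adcy10-/- cells. Ccl17, a chemokine of dendritic cells and macrophages, was at 28.1, 5.27 and 14.0 FPKM in WT and at 5.32, 4.63 and 4.23 FPKM in Adcy10-/- cells. In all 3 genes WT replicates 1 and 3 were the highest libraries, and WT replicate 2 was near the Adcy10-/- values. The log2 differences were -1.32 (SE 0.38) for Il1b, -1.13 (SE 0.40) for Lyz2 and -1.29 (SE 0.45) for Ccl17, and none passed (limma adjusted p = 0.9998). They were -0.75, -0.54 and -0.84 without the libraries numbered 1.

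A set of 25 such genes was gathered after their values were seen and is given as a description only. Il1b, Lyz2 and Ccl17 above and Fcer1g below are among the 25. Their log2 differences ran from -1.56 (S100a9, a neutrophil calprotectin subunit) to -0.49 (Spi1, the myeloid factor PU.1), and WT replicate 2 was the lowest WT library in 20 of the 25. In baseline medium 20 were tested and 20 had estimates below 0, where 52.4% of all genes tested there were below 0. Same-numbered libraries may share a source across media, so this count is not separate support. Lyz2 in WT replicates 1, 2 and 3 was at 60.9, 15.7 and 20.5 FPKM in baseline medium, the same order as with cytokines. Il4i1, an amino acid oxidase of antigen-presenting cells and some T cells, was at 12.1, 7.30 and 7.77 FPKM in WT and at 3.52, 4.81 and 6.10 FPKM in Adcy10-/- cells. Fcer1g, the signaling chain of Fc receptors, was at 10.2, 5.59 and 8.15 FPKM in WT and at 5.05, 4.68 and 4.36 FPKM in Adcy10-/- cells. For both genes the groups were apart, also in baseline medium. The log2 difference of Il4i1 was -0.79, and -0.41 without the libraries numbered 1, and that of Fcer1g was -0.62 and -0.49.

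The whole marker lists of other cell types are given beside these values. Macrophage and monocyte markers (8 listed, 3 of them under 1 FPKM in all 6 libraries, among them Csf1r and Fcgr1) summed to 82.3 to 151.6 FPKM in WT and to 70.2 to 75.2 FPKM in Adcy10-/- cells, and the groups were apart. Neutrophil and mast cell markers (9 listed) summed to 13.1 to 62.8 FPKM in WT and 2.38 to 16.7 FPKM in Adcy10-/- cells. Dendritic cell markers (8 listed, 6 under 1 FPKM, Siglech at 0) summed to 5.52 to 8.80 FPKM and 2.92 to 6.82 FPKM. Only the macrophage list separated the genotypes among these 3, and in baseline medium its sums overlapped (86.9 to 143.9 FPKM in WT, 80.5 to 92.8 FPKM in Adcy10-/- cells). Most of the difference in the sum lay in Lyz2: the 7 other macrophage markers summed to 57.8 to 58.2 FPKM in WT and to 52.4 to 54.0 FPKM in Adcy10-/- cells. The 3 macrophage markers tested had a median log2 difference of -0.28, and of -0.11 without the libraries numbered 1. B cell markers (14 listed) summed to 68.1 to 273 FPKM in WT and 53.9 to 200.7 FPKM in Adcy10-/- cells, NK cell markers (8 listed) to 10.7 to 18.7 and 9.69 to 13.5 FPKM, and CD8 T cell markers (6 listed) to 50.1 to 57.1 and 44.6 to 52.0 FPKM. In bulk RNA, fewer cells of a type and less RNA per cell cannot be told apart, and the part of these markers in the myeloid genes was not tested.

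Cd74 and H2-Ab1, named after their values were seen, followed the replicate number and, within each number, lay lower in Adcy10-/- cells. Cd74, the invariant chain of MHC class II, was at 40.9, 136.7 and 117.4 FPKM in WT and at 31.2, 77.6 and 97.1 FPKM in Adcy10-/- cells. The groups overlapped, since both replicates numbered 1 were lowest, and all 3 same-numbered pairs were lower in Adcy10-/- cells, as for 15.5% of all tested genes (8.43% were higher in all 3). The log2 difference was -0.49 (SE 0.50; limma adjusted p = 0.9998). With the replicate block the SE was 0.10 and the limma adjusted p was 0.7384. H2-Ab1, an MHC class II chain, had the same order, with 13.6, 33.7 and 32.2 FPKM in WT and 7.72, 20.9 and 27.7 FPKM in Adcy10-/- cells. B cells express both genes, which are part of the B cell marker list. Without Cd74, H2-Ab1 and H2-Aa, the 11 other B cell markers summed to 3.25, 57.4 and 51.2 FPKM in WT and to 7.83, 34.3 and 42.5 FPKM in Adcy10-/- cells. That sum was lower in Adcy10-/- cells for the numbers 2 and 3 and higher for number 1, and its part in Cd74 and H2-Ab1 was not tested.

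Genes near Adcy10 on chromosome 1 were set apart, because a targeted allele can carry flanking sequence of another strain. Within 10 Mb of Adcy10 in the GRCm38.p6 annotation lay 241 listed genes, of which 97 were tested. Of these, 64 estimates were below 0, with a median of -0.03, beside -0.01 over the 443 other tested genes of the chromosome. Groups were apart and lower for 9 of the 97 (among them Mrps14, Mpc2, Mpzl1, Creg1, Cd247, Fcgr2b, Fcer1g and Igsf8), and higher for 3 (Gorab and Scyl3 among them), against 3.39% and 1.61% of all tested genes. Fcer1g and Fcgr2b are also among the myeloid genes above.

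Mrps14, a protein of the small mitochondrial ribosome subunit, was at 26.7, 25.7 and 24.6 FPKM in WT and at 19.2, 20.8 and 17.5 FPKM in Adcy10-/- cells. The groups were apart, with a log2 difference of -0.41 (SE 0.08; limma adjusted p = 0.9998, and 0.2719 with the block) and of -0.24 in baseline medium. Mpc2, a subunit of the mitochondrial pyruvate carrier, was at 45.5, 47.0 and 42.7 FPKM in WT and at 41.0, 39.0 and 36.5 FPKM in Adcy10-/- cells, a log2 difference of -0.21, and of -0.18 in baseline medium. Mid1 and Ehd3 are not among the genes of that window. The strain origin of the flanking sequence is not given in the sources used here, and its part in these values was not tested.

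**Figure D4:**
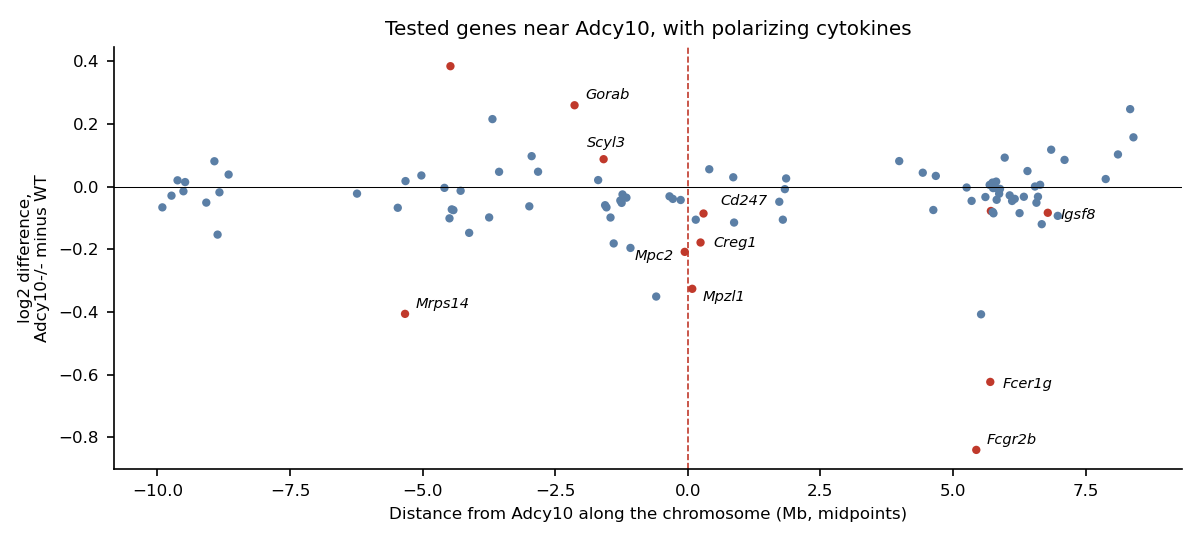
Log2 difference with cytokines, Adcy10-/- minus WT, of the tested genes within 10 Mb of Adcy10 on chromosome 1, against their distance from it (Mb, GRCm38.p6); red marks genes whose groups do not overlap, and those named in the text are labelled. Mrps14 and Mpc2 lie below 0 and Gorab above 0, and most genes of the window lie near 0.

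Several lists of housekeeping and metabolic genes had most of their estimates a little below 0, where 57.1% of all tested genes were below 0. Cytosolic ribosomal protein genes had 44 of 46 estimates below 0 and a median of -0.07, which was -0.05 after median-ratio scaling and -0.09 without the libraries numbered 1. Rps20 was at 3607, 3805 and 3249 FPKM in WT and at 3483, 3288 and 3050 FPKM in Adcy10-/- cells, so the groups overlapped while each same-numbered pair was lower. Of the 46, 21 were lower in all 3 pairs, beside 15.5% of all tested genes, and 2 were lower with groups apart, near the 3.39% of all. None of the 46 had an unadjusted p under 0.05. In baseline medium 10 of the 46 were below 0, and the median was 0.02. The difference between media was not tested for the list.

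Glycolysis genes had 20 of 22 estimates below 0 with a median of -0.08, 10 of them lower in all 3 pairs. In baseline medium 18 of the 22 were below 0, with a median of -0.04. With cytokines Eno2, the neuronal enolase isoform, was the 1 of the 22 with groups apart, and it was higher. It was at 1.30, 1.09 and 1.06 FPKM in WT and at 1.53, 1.46 and 1.70 FPKM in Adcy10-/- cells. Of all tested genes 1.61% were higher with groups apart. Hypoxia response genes had 12 of 14 estimates below 0 with a median of -0.06. In baseline medium 12 of the 14 were below 0 as well, with a median of -0.09. Among the hypoxia genes Ndrg1, a stress-induced gene of the HIF program, was the 1 of 14 with groups apart with cytokines. It was at 9.82, 8.19 and 8.74 FPKM in WT and at 7.24, 8.00 and 7.29 FPKM in Adcy10-/- cells. The log2 difference was -0.22 (-0.13 without the libraries numbered 1), and 3.39% of all tested genes were lower with groups apart. Respiratory chain genes had 34 of 40 estimates below 0, a median of -0.04 and 5 with groups apart (Ndufa9, Ndufb10, Cox6c and Cox7c among them), all lower, beside 57.1% below 0 and 3.39% lower and apart over all tested genes. Those 5 had log2 differences of -0.11 to -0.08. In baseline medium the same 40 had 17 below 0.

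Integrated stress and amino acid synthesis genes had 16 of 17 estimates below 0 with a median of -0.06, where 57.1% of all tested genes were below 0. In baseline medium 10 of the 17 were below 0, with a median of -0.0013. With cytokines the remaining gene was Ddit3, described above. Chac1, an ATF4 target like Ddit3, was at 1.23, 2.35 and 2.08 FPKM in WT and at 0.9751, 1.74 and 1.26 FPKM in Adcy10-/- cells, a log2 difference of -0.30 with overlapping groups. Interferon-stimulated genes leaned the other way, with 19 of 28 estimates above 0, where 42.9% of all tested genes were above 0. Their median was 0.05 with cytokines and 0.09 in baseline medium. Gbp4, an interferon-induced GTPase, was the member with groups apart: 13.5, 11.2 and 13.8 FPKM in WT and 14.3, 15.4 and 16.6 FPKM in Adcy10-/- cells (log2 difference 0.25, SE 0.09; limma adjusted p = 0.9998). That is 1 of the 28, where 1.61% of all tested genes were higher with groups apart. T cell activation genes had 12 of 22 estimates above 0 and T cell receptor signaling genes 9 of 20, with medians of 0.01 and -0.01, and cell cycle genes 13 of 33 with a median of -0.01. After median-ratio scaling the last 2 of these medians were on the other side of 0 (0.01 and 0.00048) and that of T cell activation was 0.03. Scaling moves the median of all genes by 0.01 to 0.02.

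**Figure D5:**
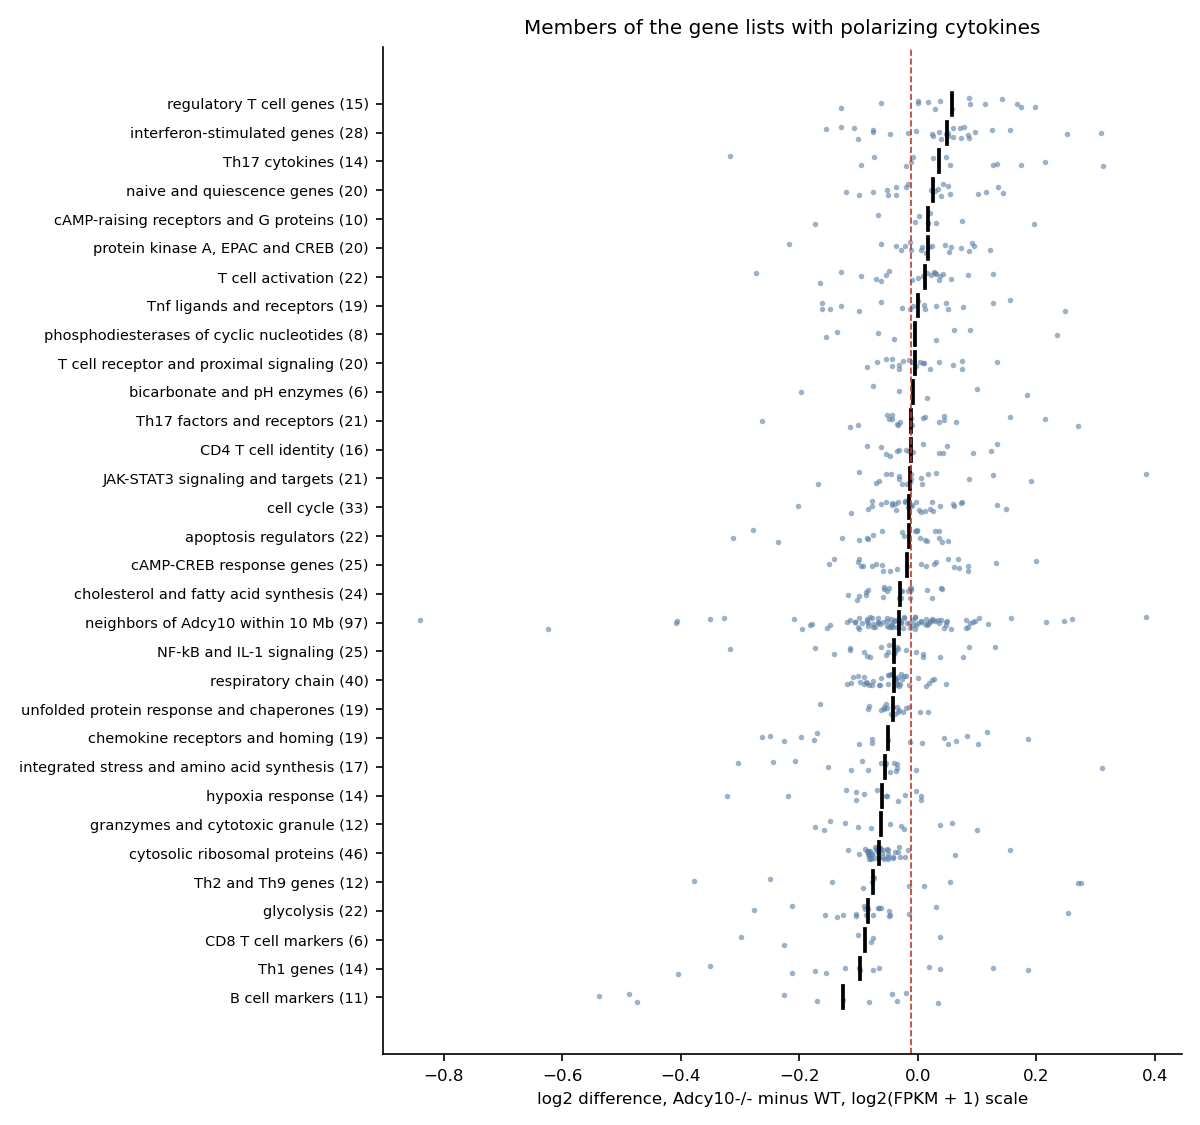
Log2 difference with cytokines, Adcy10-/- minus WT, of each tested member (dots) of the gene lists with at least 6 tested members; the black bar is the list's median and the red dashed line the median of all tested genes. Glycolysis, ribosomal and respiratory chain lists sit slightly left of the line and interferon-stimulated and regulatory T cell lists slightly right of it.

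The difference of the genotype effect between media was tested for each gene in a fit over all 12 libraries. Of 10126 genes, 0 passed (0%), and 112 (1.11%) had an unadjusted p under 0.05. Among genes named here, the interaction was -0.27 (SE 0.84) for Il17a and 0.10 (SE 0.70) for Il21. In baseline medium alone the SE of the genotype difference was 0.64 for Il17a and 0.63 for Il21. The 15 lower and the 15 higher genes were chosen on the libraries with cytokines, which also enter the interaction, so their count says nothing about the media: 4 and 3 had an interaction with an unadjusted p under 0.05, among them Ass1 (0.65, SE 0.22) and Anapc13, a subunit of the anaphase-promoting complex (-0.36, SE 0.11).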

How the data were processed

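The authors deposited 1 file of FPKM per library (24488 entries). The tools named in the submitters' processing notes are STAR 2.4.0f1, SAMtools 0.1.19, Cufflinks and HTSeq, with the build mm9. Entries of the 258 names listed several times (755 entries) were summed. FPKM carries no read counts, so error comes from the spread between libraries. Genes with at least 1 FPKM in 3 of the 6 libraries were tested as log2(FPKM + 1), which understates changes of low genes, with limma 3.58.1 (R 4.3.3; empirical Bayes with variance trend), Adcy10-/- minus WT, Benjamini-Hochberg over all tested genes, threshold 0.05; errors are moderated SE. Exact permutation tests were two-sided over 3 against 3. The fit was tested on simulated data. Tables were made with pandas 2.3.3, numpy 2.4.6 and scipy 1.17.1 in Python 3.11.15, and figures with matplotlib 3.10.9.

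Replicate numbers come from the titles. Deviations of same-numbered WT and Adcy10-/- libraries correlated at 0.59, 0.29 and 0.43, and those of other pairs at -0.42 to 0.05, so the numbers were taken to pair the samples.

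Named genes are a fixed panel, the 15 smallest p-values each way among genes with a mean of at least 5 FPKM (small RNAs, receptor segments and predicted genes excepted), the smallest p of each list, and chromosome 1 neighbors with groups apart. Other genes named belong to the lists or are marked as chosen after their values were seen. The members and lists were chosen with earlier results of these data known. Some genes within the rule are not reported here.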

Additional observations from a re-analysis of the deposited data

How the results depend on the processing

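With the replicate block, all 12 libraries, other pseudocounts, filters, scalings, repeated names left out or no variance trend, 0 genes passed in the cytokine comparison. The replicate block changed no call: 0 genes passed in each comparison, with smallest limma adjusted p of 0.1103 with cytokines, 0.8333 in baseline medium and 0.999 for the interaction. Genes with an unadjusted p under 0.05 numbered 137 of 9912 as reported and 406 of 9912 with the block. They numbered 479 of 16094 without the filter, and 202 of 10126 with all 12 libraries (515 of 10126 with the block).

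Leaving out 1 library gave 0 to 1 genes in each of the 3 comparisons: Mir703 with cytokines (without WT replicate 1, limma adjusted p = 0.003175), Mir684-1 (without WT replicate 2) and Snord16a (without Adcy10-/- replicate 1) in baseline medium, and for the interaction Mir703 (without the WT replicate 1 with cytokines) or Snora75 (without the Adcy10-/- one). All are small RNAs. Leaving out the libraries numbered 1, chosen after seeing the data, gave 1 gene in baseline medium (Snora33).

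The Th17 cytokine estimates changed sign without passing. Leaving out 1 library gave -0.41 to 0.27 for Il17a, -0.45 to 0.25 for Il17f, -0.071 to 0.42 for Il22 and -0.066 to 0.057 for Il21. Il17a was -0.41 without WT replicate 2 and -0.29 without Adcy10-/- replicate 3, and Il22 -0.071 without WT replicate 2. Il17f was 0.25, 0.15, 0.05 and 0.05 without WT replicates 1 and 3 and Adcy10-/- replicates 1 and 2, and Il21 was 0.033 and 0.057 without WT replicate 3 and Adcy10-/- replicate 1. Median-ratio scaling gave 0.0044 for Il21. Quantile normalization gave 0.0024 for Il17f and 0.023 for Il21. Without the libraries numbered 1 they were 0.31 and 0.067.

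Alternatives were run for 32 other named genes (the 15 lower, the 15 higher, Mid1 and Plaur), and none of their 542 values changed direction or call. The remaining genes named were not run under all alternatives. The depth of each library is known only relative to the others.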

Other observations

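Pet117, a small mitochondrial assembly factor gene named after its values were seen, was listed at 0.692 FPKM in WT replicate 2 and at effectively 0 in WT replicates 1 and 3, against 1.48, 2.20 and 1.35 FPKM in Adcy10-/- replicates 1, 2 and 3. It did not pass (limma adjusted p = 0.9998, and 0.1103 with the replicate block). An FPKM near 0 can be a failed estimate of the transcript model, so no fold is given.

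Red cell markers varied between libraries and not by genotype: their sum was 126.2 FPKM in Adcy10-/- replicate 3 and 26.02 FPKM in WT replicate 3, and at most 3.94 FPKM in the other 4 libraries.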
